A study of Homo sapiens with 4 samples.

Results

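The respiratory chain and ATP synthase are the enzyme complexes of the mitochondrial inner membrane that turn the oxidation of NADH and succinate into ATP. Their nuclear genes were taken from the deposited tables by symbol: SDHA, SDHB, SDHC and SDHD, and all symbols starting with NDUFA, NDUFB, NDUFC, NDUFS, NDUFV, UQCR, COX4, COX5, COX6, COX7, COX8 or ATP5, leaving out the NDUFAF assembly factors. The rule found 89 genes among 21865 symbols. Of these, 75 encode subunits: 37 of complex I, 4 of complex II, 8 of complex III, 11 of complex IV and 15 of complex V, which is ATP synthase. NDUFA4 was counted with complex IV, where its protein is now placed. A further 7 are isoforms that other tissues or hypoxia are known to favour, 3 are near copies of a subunit gene (UQCRHL, ATP5L2 and ATP5EP2) and 2 are related proteins (COX7A2L and ATP5S). COX4NB and ATP5SL carry matching symbols but encode proteins that are not subunits.

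The RNA came from cultures of 4 established lines of human acute myeloid leukemia, and each line had 1 library. HL60 is a promyelocytic line, KG1a is an immature CD34+ line, and the monocytic lines THP-1 and MonoMac-1 are known to carry the MLL-AF9 fusion. All cultures grew in RPMI/Opti-Media with inactivated fetal bovine serum and antibiotics, and the labels name no treatment. The THP-1 sample's title ends in "tr", which nothing in the labels explains. With 1 library per line there was no replicate check and no test. Each difference is between 2 libraries, and how far cultures of 1 line differ was not measured. RPKM is a share of the library, so less RNA of a gene in every cell, fewer cells expressing it and more RNA of other genes cannot be told apart.

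Complex I passes electrons from NADH to ubiquinone, complex II from succinate to ubiquinone, complex III from ubiquinol to cytochrome c, and complex IV from cytochrome c to oxygen. Complexes I, III and IV pump protons, and ATP synthase uses the gradient: its membrane part Fo rotates and drives the catalytic head F1. Most subunits are encoded in the nucleus, and a few hydrophobic ones are encoded by mitochondrial DNA and were not analysed here. Nuclear respiratory factor 1 (NRF1), the ETS-family factor GABP and PGC-1 coactivators are known regulators of the nuclear genes.

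The libraries held 6.04 to 13.6 gigabases on genes, and the lowest subunit value in any line rested on 631 fragment equivalents. A fragment equivalent is 200 sequenced bases, inferred as a pair of reads of 100 bases. The exact Poisson 95% interval around a subunit value had a median width of 2.90% to either side and at most 7.88%, for counting error only. In all 75 subunits the intervals of the highest and lowest lines did not overlap, whereas 47 of 225 pairs of neighbouring line values did. The same overlap was not counted for other genes, so it shows no trait particular to the subunits. Most line markers followed the labels: MPO was at 4610.2 RPKM in HL60, CD34 at 493.8 in KG1a, and CD68 at 170.0 in THP-1 and 219 in MonoMac-1. CD14 reached only 1.28 and 4.13 in the monocytic lines, and the granule genes ELANE, PRTN3 and AZU1 were higher there than in HL60 (ELANE at 1042 and 1313 against 76.6). Of markers of other cells, CD3E was at 14.1 in KG1a, and EPCAM and COL1A1 were not measured. HL60 also held low levels of genes otherwise seen in KG1a, at a median of 2.75% of the KG1a level over 24 genes. An equal share of the KG1a level makes a median of 2.28% of the HL60 subunit values, and 9.69% at most.

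Of the 89 genes, 81 were measured, meaning at least 1 RPKM in at least 1 line, and these included all 75 subunits. The unmeasured 8 were 6 tissue isoforms and the near copies ATP5L2 and ATP5EP2. Runs of 4 values are given in the order HL60, KG1a, THP-1, MonoMac-1. The distance between the highest and the lowest line on the log2(RPKM + 1) scale is called the range. It reached 1 in 35 of the 81 measured genes (43.2%), 32 of them subunits. A difference of 1 on this scale is called 2-fold, also between pairs of lines; it takes slightly more than a doubling of the RPKM itself. Over all 12976 measured genes the share was 61.1%. The median range was 0.92 for the 81 genes and 1.18 for all measured genes. These genes thus lay closer together across the lines than measured genes in general. Without KG1a, 16 of them reached 2-fold (19.8%), against 42.7% of the genes measured in the other 3 lines.

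The lines took unequal places in this order. MonoMac-1 had the highest value for 43 of the 81 genes (53.1%), against 24.9% of all measured genes, and the lowest for 1 (1.23%), against 19.4%. KG1a had the lowest value for 40 (49.4%), against 29.8%, and the highest for 12 (14.8%), against 31.0%. HL60 was highest for 17 (21.0%) and lowest for 15 (18.5%), where all measured genes gave 23.1% and 27.0%. THP-1 was highest for 9 (11.1%) and lowest for 25 (30.9%), where they gave 21.0% and 23.8%. After quantile normalization, which forces the 4 libraries to 1 distribution, MonoMac-1 was highest for 30, HL60 for 21, KG1a for 21 and THP-1 for 9. In that order these were 37.0%, 25.9%, 25.9% and 11.1% of the 81, against 19.7%, 28.3%, 30.3% and 21.7% of all measured genes. KG1a was then lowest for 36 (44.4%), against 29.8%. The median deviation of the 75 subunits from each gene's mean over the lines was 0.04 and -0.23 in HL60 and KG1a, and -0.17 and 0.33 in THP-1 and MonoMac-1 (log2). For all measured genes these medians lay between -0.08 and 0.02.

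Subunit transcripts are short, and short transcripts outside the chain had the same order of lines. The gene length behind the RPKM had a median of 843 bases for subunits and 2819 for all measured genes. Among genes outside the chain that reached 5 RPKM, the 827 under 1000 bases had median deviations of 0.04 and -0.18 in HL60 and KG1a, and -0.09 and 0.19 in THP-1 and MonoMac-1. The 3022 of 4000 bases or more had -0.08, 0.13, 0.01 and -0.09. The deviations of short genes were smaller than those of the subunits in KG1a, THP-1 and MonoMac-1, and the long genes had the opposite sign to the subunits in all 4 lines. In MonoMac-1 few low coverage values were multiples of 100 bases, 12.8% against 46.0% to 50.7% in the other libraries, so its reads may have been trimmed or clipped. The part of transcript length and of this difference between libraries in the result was not tested.

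**Figure D1:**
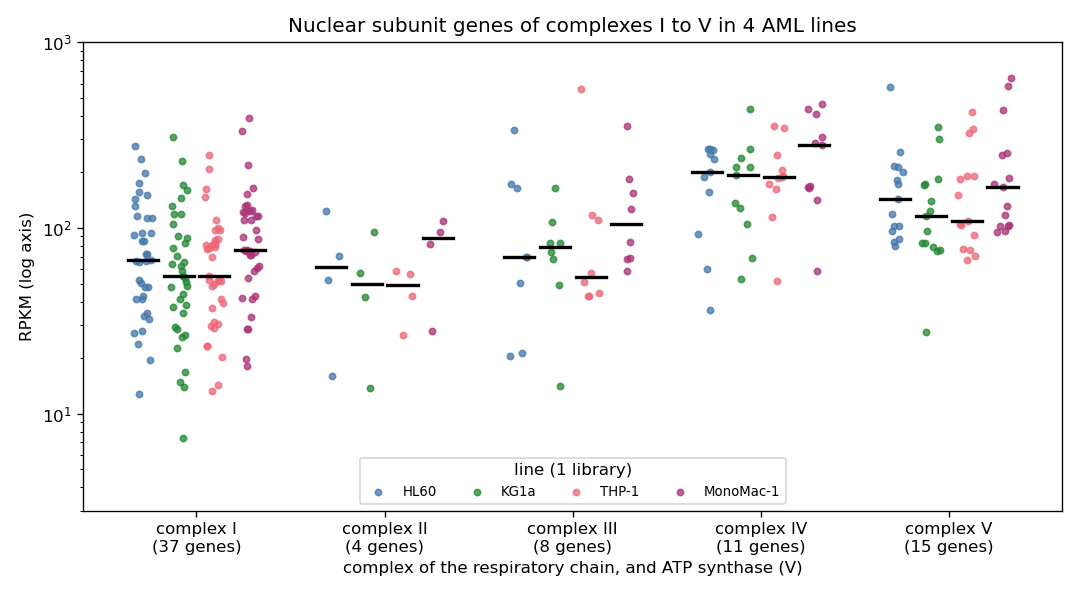
RPKM (log axis) of the 75 subunit genes by complex; each point is 1 gene in 1 library, coloured by line, and each black bar is the median of the complex in that line. The MonoMac-1 bar is the highest in all 5 complexes, from 76.4 RPKM in complex I to 279.8 in complex IV.

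The complexes differed more in level than the lines did. Median RPKM per subunit gene of complex IV was 199.5 and 192 in HL60 and KG1a, and 188 and 279.8 in THP-1 and MonoMac-1. Complex V followed with medians of 144, 116, 109 and 167 in the same order. Complex I medians were 67.1, 55.0, 55.0 and 76.4. Complex III stood at 70.1, 78.8, 54.3 and 106, and complex II at 61.4, 49.7, 49.6 and 88.4. The plot of levels by complex shows MonoMac-1 highest in each. The THP-1 median was lowest in 4 of them, narrowly in complexes II and IV, and level with KG1a in complex I. By the median deviation of each gene from its mean over the lines, the lowest line differed. KG1a was lowest in complexes I, III and V, and THP-1 in complex II. In complex IV HL60 was lowest at -0.31, and THP-1 was at 0.01. The MonoMac-1 median exceeded the KG1a median by 0.47 (log2) in complex I, and by 0.26 after quantile normalization. For complexes III, IV and V the same difference was 0.42, 0.54 and 0.53, and 0.21, 0.27 and 0.32 after quantile normalization. In complex II it was 0.83, and 0.63 after quantile normalization.

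**Figure D2:**
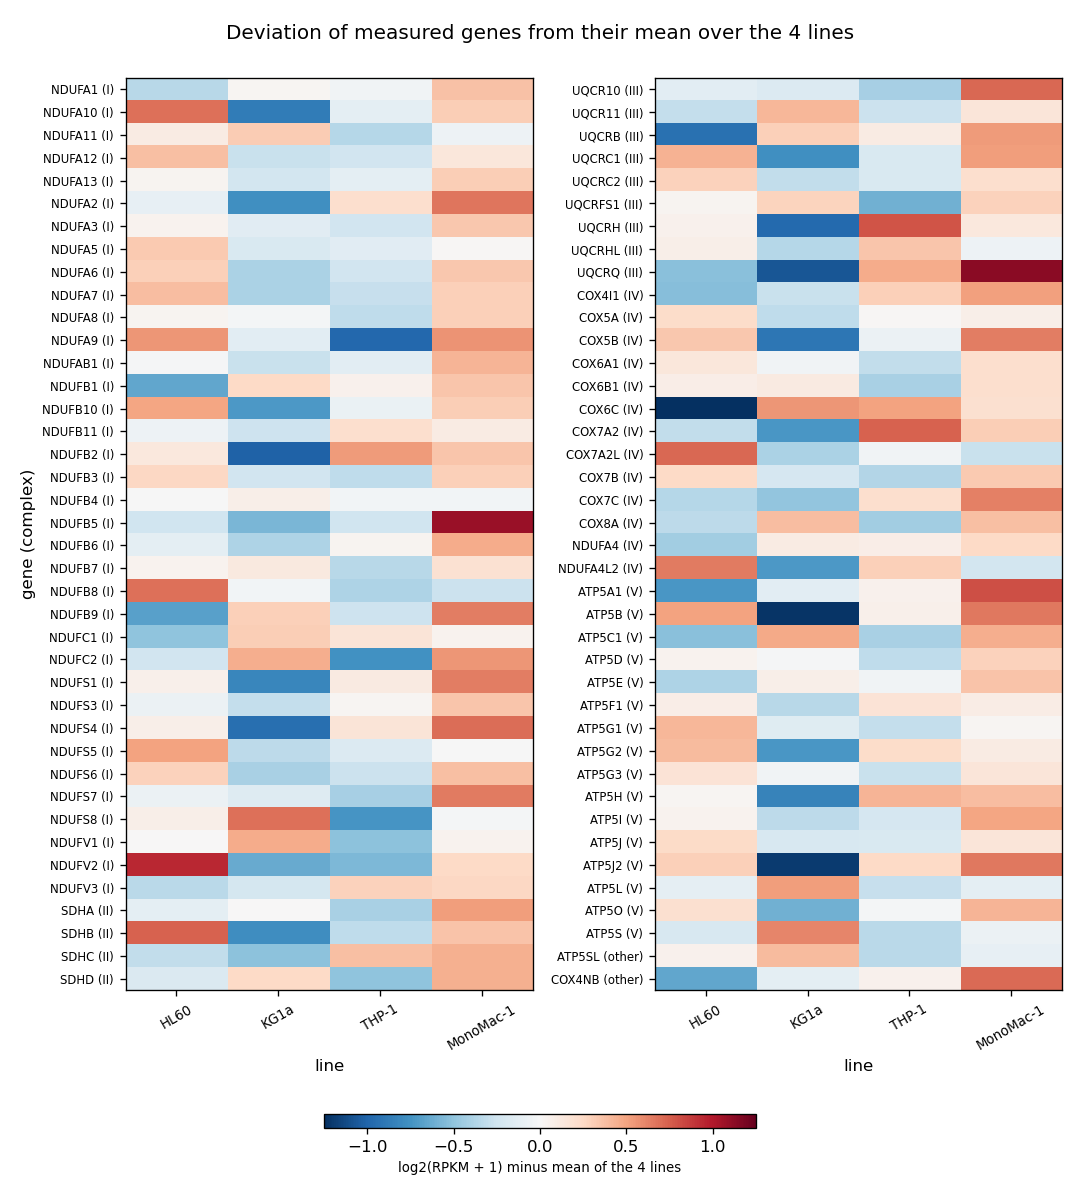
Deviation of log2(RPKM + 1) from the mean of the 4 lines for the measured genes, 1 left out, with the complex in brackets; columns are lines, red is above and blue below the gene's mean. The MonoMac-1 column is mostly red and the KG1a column mostly blue, with single genes such as NDUFV2 in HL60 and NDUFS8 in KG1a standing apart.

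In complex I, the entry point for NADH, 14 of 37 subunit genes had a range of at least 2-fold, below the 61.1% of all measured genes. The 7 core subunits, which carry the flavin and iron-sulfur clusters, had medians of 91.7 and 65.8 RPKM in HL60 and KG1a, and 69.4 and 110.2 in THP-1 and MonoMac-1. The 30 accessory subunits had 66.9, 52.5, 53.6 and 75.04. Both groups were highest in MonoMac-1 and lowest in KG1a.

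NDUFV2, a core iron-sulfur subunit of the NADH-oxidising module, was at 199 and 65.8 RPKM in HL60 and KG1a, and 69.4 and 122 in THP-1 and MonoMac-1. HL60 stood above the other lines, 3.02-fold over KG1a. Its module partner NDUFV1, which binds the flavin, ran differently, at 116, 160, 80.8 and 119.7, with KG1a highest. NDUFS1, the largest core subunit, was at 27.8, 14.8, 28.9 and 42.0. The 3 genes of this module therefore had 3 different highest lines: HL60, KG1a and MonoMac-1.

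Of the ubiquinone-side core subunits, NDUFS8 was at 94.0 and 145 RPKM in HL60 and KG1a, and 53.0 and 87.6 in THP-1 and MonoMac-1. NDUFS7 was at 66.3, 62.4, 52.3 and 110.2, with MonoMac-1 alone high. NDUFS3 stayed within 2-fold, at 91.7, 78.1, 97.8 and 123.

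The 2 widest ranges in complex I belonged to accessory subunits. NDUFB5 was at 52.1 and 41.5 RPKM in HL60 and KG1a, and 52.1 and 132 in THP-1 and MonoMac-1, so MonoMac-1 stood alone. NDUFS4, which is mutated in Leigh syndrome, was at 34.7, 16.7, 37.0 and 54.1, with KG1a alone low. NDUFA10 was at 23.8, 7.42, 13.2 and 18.1, and its KG1a value was the lowest of any subunit in any line. NDUFB2 was low in KG1a too, at 65.9, 29.1, 87.2 and 76.1, as were NDUFB10 (149.7, 64.0, 100.2 and 131) and NDUFA2 (41.5, 25.8, 51.9 and 71.5). NDUFA9, which lies at the junction of the matrix and membrane arms, had its low value in THP-1 instead: 42.9, 26.4, 14.2 and 43.2. NDUFC2 was at 33.5, 55.0, 23.1 and 58.8, and THP-1 was again lowest. NDUFB8 was highest in HL60 (174, 105, 82.0 and 89.3), and NDUFB9 lowest there (156, 309, 209 and 393). The extreme line thus differed from gene to gene within complex I.

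NDUFB9 was the most abundant complex I transcript in KG1a and MonoMac-1, and NDUFA13, also known as the cell death regulator GRIM-19, in HL60 at 275 RPKM and THP-1 at 246. NDUFB4 had the smallest range of the complex, 0.11, at 113, 119, 111 and 111 RPKM.

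Complex II, the succinate dehydrogenase that also belongs to the citric acid cycle, has 4 subunits and all are nuclear. SDHB, its iron-sulfur protein, was at 123 and 42.5 RPKM in HL60 and KG1a, and 58.8 and 94.8 in THP-1 and MonoMac-1, and was the only one with a range of 1 or more. SDHA, the flavoprotein, was at 52.3, 56.9, 42.8 and 82.0. The membrane anchors were at 15.98, 13.8, 26.4 and 27.8 (SDHC) and 70.6, 95.4, 56.4 and 109 (SDHD), and SDHC missed that mark narrowly, with a range of 0.96. HL60 was highest for SDHB, and MonoMac-1 for the other 3. The SDHA pseudogenes SDHAP1, SDHAP2 and SDHAP3 were listed at 1.46 to 7.11 RPKM. How the authors' counting split reads between them and SDHA is not known.

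Complex III had 5 of 8 subunit genes with a range of at least 2-fold, a share near the 61.1% of all measured genes. Its small subunits held the extremes. UQCRQ, a small membrane subunit known as a ubiquinone-binding protein (chr5:132202319-132204536 in hg19, as listed), had the widest range of all 75 subunits. Its values were 21.1 RPKM for HL60 (95% interval 20.1 to 22.2), 14.1 for KG1a (13.4 to 14.9), 42.9 for THP-1 (41.2 to 44.7) and 68.2 for MonoMac-1 (66.8 to 69.7). Both monocytic lines lay above both others, and MonoMac-1 was 4.83-fold over KG1a. UQCRH, the hinge protein that helps cytochrome c dock, was the most abundant complex III transcript in each line: 338, 164, 562 and 355. THP-1 was highest and KG1a lowest.

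UQCRB was at 20.5 and 49.5 RPKM in HL60 and KG1a, and 43.1 and 58.3 in THP-1 and MonoMac-1, with HL60 alone low. UQCRC1, a core protein, was at 173, 74.5, 111 and 183, whereas UQCRC2, the other core protein, stayed within 2-fold (164, 108, 117 and 155). UQCR10 was at 70.1, 68.0, 57.2 and 127, MonoMac-1 alone being high. UQCRFS1, the Rieske iron-sulfur protein, ran from 44.9 in THP-1 to 84.0 in MonoMac-1, and UQCR11 from 50.5 in HL60 to 83.3 in KG1a. The near copy UQCRHL was listed at 1.43, 0.814, 1.96 and 1.22 RPKM, or 0.34% to 0.49% of the summed UQCRH and UQCRHL level. It had the same highest and lowest lines as UQCRH, and reads of these near-identical copies may have been split or shared.

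Complex IV, cytochrome c oxidase, had 5 of 11 subunit genes at 2-fold or more, below the 61.1% of all measured genes. COX6C was at 60.2 and 213 RPKM in HL60 and KG1a, and 206 and 167 in THP-1 and MonoMac-1, a 3.53-fold spread set by the low HL60 value. COX5B was at 249, 105, 188 and 309, with KG1a alone low. COX7A2 was at 92.4, 68.7, 192 and 142, and COX7C at 234, 213, 347 and 464. COX4I1, an early-assembled subunit that binds regulatory nucleotides, was at 199.5, 237, 355 and 413. In COX7A2, COX7C and COX4I1 both monocytic lines were above both others. The other subunits stayed within 2-fold, and the most abundant was COX8A in HL60 and KG1a (267 and 438), COX4I1 in THP-1 and COX7C in MonoMac-1. NDUFA4 had the lowest complex IV level in all 4 lines, 36.1 to 58.3.

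COX4NB, which encodes EMC8 of the endoplasmic reticulum membrane complex and starts beside COX4I1 on the opposite strand, with overlapping upstream windows in RefSeq, was at 10.4, 15.4, 17.6 and 28.2 RPKM. The neighbouring genes thus shared the order of the lines although 1 is not part of complex IV. COX7A2L, which is known for joining complexes III and IV into supercomplexes, was highest in HL60: 117, 53.6, 68.6 and 58.2. It exceeded COX7A2 only in HL60, where it made 55.9% of the summed COX7A family, against 43.8% in KG1a and, in THP-1 and MonoMac-1, 26.4% and 29.1%.

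Isoforms that muscle, lung or testis are known to use were at or near 0 in the 4 leukemia lines. COX4I2, the lung form, was listed at 0 in each. COX6A2, a heart and muscle form, was listed at 0 in HL60, KG1a and THP-1, where 3 fragment equivalents would be 0.149, 0.120 and 0.211 RPKM, and at 0.165 in MonoMac-1. COX7A1, the other muscle form, lay between 0.0497 and 0.112. The testis forms COX6B2, COX7B2 and COX8C reached 0.0481, 0.0234 and 0.130 at most, and COX7B2 was listed at 0 outside MonoMac-1. In their families the highest share of any line was 0.101% for COX6A2, 0.0257% for COX6B2, 0.0781% for COX7A1, 0.00837% for COX7B2 and 0.0526% for COX8C. The ubiquitous partner made up nearly all of the family in each line, together with COX7A2L in the COX7A family.

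NDUFA4L2, a relative of NDUFA4 known to be induced by hypoxia, was the only isoform of this kind to reach 1 RPKM. It was at 2.65 and 0.421 in HL60 and KG1a, and 1.86 and 0.995 in THP-1 and MonoMac-1, or 6.83%, 0.79%, 3.45% and 1.68% of the summed NDUFA4 and NDUFA4L2 level.

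**Figure D3:**
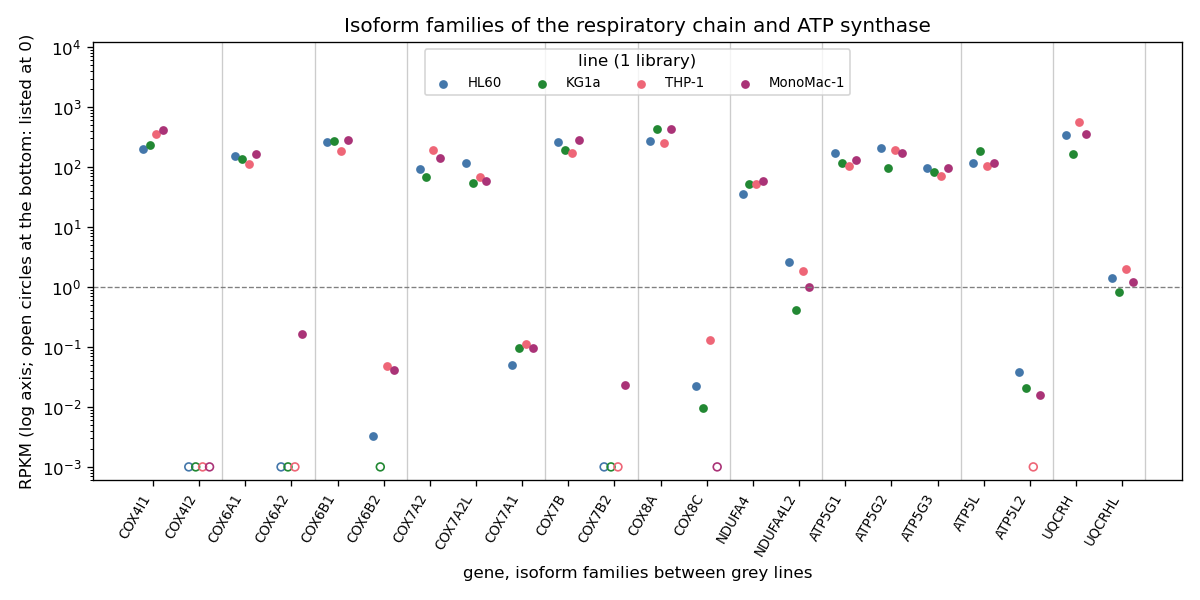
RPKM (log axis) of each gene of the isoform families, 1 point per library, with families separated by grey lines; open circles at the bottom are values listed at 0, and the dashed line marks 1 RPKM. COX4I2, COX6A2, COX6B2, COX7A1, COX7B2 and COX8C lie below 0.2 RPKM, while their ubiquitous partners lie between 68.7 and 438.

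Upstream sequences are shown for 4 of the 5 isoform pairs with both genes in the promoter table, to set a ubiquitous gene beside its partner listed at or near 0, and for UQCRC1 as a subunit gene with an NRF1 motif. Each is the stretch of 250 bases before the RefSeq transcript start (GRCh38.p14), written 5′ to 3′ on the gene's strand. Capitals mark matches to the NRF1 motif GCGCA, 1 base of any kind, then GCGC, or to the ETS motif CCGGAAG, on either strand.
COX6A1, chr12:120437863-120438112, plus strand: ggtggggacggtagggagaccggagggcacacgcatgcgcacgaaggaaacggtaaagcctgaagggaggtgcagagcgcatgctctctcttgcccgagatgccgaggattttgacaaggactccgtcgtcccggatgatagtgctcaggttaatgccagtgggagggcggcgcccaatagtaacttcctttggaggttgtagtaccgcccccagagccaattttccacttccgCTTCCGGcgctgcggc
COX6A2, chr16:31428361-31428610, minus strand: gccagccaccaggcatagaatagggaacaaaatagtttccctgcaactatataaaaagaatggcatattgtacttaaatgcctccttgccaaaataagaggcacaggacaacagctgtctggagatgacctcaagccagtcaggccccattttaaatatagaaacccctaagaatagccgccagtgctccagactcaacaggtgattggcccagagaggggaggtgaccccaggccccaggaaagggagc
COX6B1, chr19:35648073-35648322, plus strand: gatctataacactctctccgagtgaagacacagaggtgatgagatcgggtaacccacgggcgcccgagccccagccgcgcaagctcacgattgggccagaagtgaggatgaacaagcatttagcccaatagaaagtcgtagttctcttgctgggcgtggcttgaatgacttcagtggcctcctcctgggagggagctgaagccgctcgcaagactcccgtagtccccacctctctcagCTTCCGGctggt
COX6B2, chr19:55354720-55354969, minus strand: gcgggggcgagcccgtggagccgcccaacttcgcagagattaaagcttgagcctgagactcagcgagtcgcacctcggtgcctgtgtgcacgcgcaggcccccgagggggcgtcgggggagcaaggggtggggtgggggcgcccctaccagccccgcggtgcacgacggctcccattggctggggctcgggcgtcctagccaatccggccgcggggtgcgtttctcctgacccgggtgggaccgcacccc
COX7B, chrX:77899218-77899467, plus strand: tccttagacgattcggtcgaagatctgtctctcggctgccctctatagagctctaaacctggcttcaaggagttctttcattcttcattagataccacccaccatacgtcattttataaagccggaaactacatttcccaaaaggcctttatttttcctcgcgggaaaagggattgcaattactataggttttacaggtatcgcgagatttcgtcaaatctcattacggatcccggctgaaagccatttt
COX7B2, chr4:46909246-46909495, minus strand: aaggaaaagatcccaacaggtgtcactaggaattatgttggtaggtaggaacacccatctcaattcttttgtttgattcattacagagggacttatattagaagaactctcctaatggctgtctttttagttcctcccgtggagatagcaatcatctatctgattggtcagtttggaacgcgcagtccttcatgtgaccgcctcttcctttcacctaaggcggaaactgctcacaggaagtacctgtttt
COX8A, chr11:63974370-63974619, plus strand: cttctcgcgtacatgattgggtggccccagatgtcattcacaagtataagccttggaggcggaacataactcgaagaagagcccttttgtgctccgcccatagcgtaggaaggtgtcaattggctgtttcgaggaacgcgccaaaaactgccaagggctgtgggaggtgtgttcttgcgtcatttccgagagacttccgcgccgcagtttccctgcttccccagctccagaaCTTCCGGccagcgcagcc
COX8C, chr14:93346932-93347181, plus strand: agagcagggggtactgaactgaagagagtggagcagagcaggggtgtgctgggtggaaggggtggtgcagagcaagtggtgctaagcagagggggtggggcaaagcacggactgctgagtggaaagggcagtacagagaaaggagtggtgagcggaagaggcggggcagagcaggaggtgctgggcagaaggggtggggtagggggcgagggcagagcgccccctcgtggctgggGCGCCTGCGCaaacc
UQCRC1, chr3:48609647-48609896, minus strand: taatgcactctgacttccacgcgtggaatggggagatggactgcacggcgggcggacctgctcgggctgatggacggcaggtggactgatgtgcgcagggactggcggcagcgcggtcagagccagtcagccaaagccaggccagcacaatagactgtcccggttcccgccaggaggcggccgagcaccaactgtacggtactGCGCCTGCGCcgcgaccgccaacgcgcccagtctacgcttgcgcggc

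The number of CG dinucleotides in this stretch did not sort the pairs by level. The ubiquitous gene had more in 3 pairs: 19 for COX6A1 against 1 for COX6A2, 13 for COX7B against 5 for COX7B2, and 16 for COX8A against 8 for COX8C. It had fewer in COX6B1, 14 against 26 for COX6B2, and in NDUFA4, 9 against 14 and 15 at the NDUFA4L2 starts. UQCRC1 had 26. An ETS match stood in COX6A1, COX6B1 and COX8A, and an NRF1 match in UQCRC1 and in COX8C, whose RNA was nearly absent. Promoters of 71 of the 89 genes were in the table, and some genes have more than 1 start. Among 75 windows of subunit genes 13 held the NRF1 motif (17.3%) and 18 the ETS motif (24%). Among all 35116 windows of the table the shares were 5.07% and 8.52%. The median number of CG dinucleotides was 18 in subunit windows and 11 over all windows. Such a match is a description of letters and not of binding.

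ATP synthase had 7 of 15 subunit genes with a range of at least 2-fold, below the 61.1% of all measured genes. The F1 head held the largest single value of the 75 subunits. ATP5B, the catalytic beta subunit (chr12:57031959-57039852 in hg19, as listed), was at 575 and 172 RPKM in HL60 and KG1a, and 422 and 640.0 in THP-1 and MonoMac-1. KG1a was alone low, 3.73-fold below MonoMac-1. ATP5A1, the alpha subunit that alternates with beta in the head, was at 199, 303, 343 and 580.0, with HL60 lowest. The pair that forms 1 hexamer thus had different lowest lines. ATP5C1, the gamma shaft, was lowest in HL60 like ATP5A1 but also low in THP-1, at 84.3, 170, 91.5 and 167. ATP5E, the epsilon subunit, was the most abundant ATP synthase transcript in KG1a (256, 351, 325 and 430.1). ATP5D, the delta subunit, stayed between 67.5 and 103.

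In the stalk and membrane part, ATP5J2 (subunit f) was at 79.5 and 27.6 RPKM in HL60 and KG1a, and 76.7 and 103 in THP-1 and MonoMac-1. ATP5H (subunit d) was at 144, 78.9, 190.5 and 186, and ATP5O, the oligomycin sensitivity protein, at 217, 123, 184 and 254. KG1a was lowest in all 3. The c ring is built from 1 protein encoded by 3 genes that differ in their import sequences. ATP5G1 was at 172, 116, 104 and 131, ATP5G2 at 212, 96.6, 189.6 and 173, and ATP5G3 at 96.0, 82.7, 70.3 and 94.8. ATP5G2 made the largest share in HL60 (44.1%), THP-1 (52.1%) and MonoMac-1 (43.4%), and ATP5G1 in KG1a (39.2%, against 32.8% for ATP5G2). ATP5L (subunit g) was highest in KG1a (119, 185, 105 and 118), and its near copy ATP5L2 did not exceed 0.0381. ATP5EP2, a copy of ATP5E, stayed at or under 0.762.

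By pairs of lines, 18 of the 81 genes were at least 2-fold higher in MonoMac-1 than in KG1a (background 17.3%), and 0 were higher in KG1a (14.8%). HL60 exceeded KG1a by that margin in 14 (13.1%), and KG1a exceeded HL60 in 3, COX6C, UQCRB and ATP5C1 (17.9%). THP-1 exceeded KG1a in 9 (16.5%), and KG1a exceeded THP-1 in NDUFC2 and NDUFS8 (16.1%). MonoMac-1 was above HL60 in 8 (17.0%) and above THP-1 in 5 (9.68%), and 0 genes were lower in MonoMac-1 than in either by this margin (8.25% and 7.65%). COX7A2L and NDUFA4L2 were lower in MonoMac-1 than in HL60 by more than a doubling of the RPKM, and with a pseudocount of 0.1 the count against HL60 was 2. HL60 was above THP-1 in NDUFA9, NDUFB8, NDUFV2 and SDHB (10.6%), and THP-1 above HL60 in COX6C, COX7A2 and UQCRB (16.3%). Of these 12 directed counts, those of MonoMac-1 over KG1a (22.2% of the 81) and HL60 over KG1a (17.3%) were above their background, and the other 10 were below. After quantile normalization they were 14.8% and 13.6%, against 15.9% and 14.6% of all measured genes, so neither was above it. The median subunit difference was -0.52 (log2) for KG1a less MonoMac-1, with 11 of 75 higher in KG1a, where all measured genes had a median of -0.03 and 47.8% were higher. For THP-1 less MonoMac-1 it was -0.43, with 12 of 75 higher in THP-1, against a median of -0.04 and 45.9% over all measured genes.

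The series title names MLL-AF9 leukemia, so THP-1 and MonoMac-1 were set against HL60 and KG1a. Both monocytic lines were above both others for 19 of the 81 genes, by any margin (22.1% of all measured genes), and below both for 6 (19.6%). The 19 included UQCRQ, UQCRH, COX4I1, COX7A2, COX7C, NDUFS1, NDUFS4 and ATP5A1, and the 6 were ATP5L, ATP5SL, NDUFA11, NDUFB4, NDUFB8 and NDUFS8. By at least 2-fold the count was 0 in both directions, where all measured genes gave 4.38% and 1.58%. UQCRQ lay just under the mark, and the higher count was 1 with a pseudocount of 0.1, 1 after quantile normalization and 1 with the KG1a share taken off HL60. With 1 line left out, fewer values have to be ordered, and the higher count became 45 without HL60, 29 without KG1a, 51 without THP-1 and 20 without MonoMac-1. Over all genes measured in the same 3 lines the shares were 39.2%, 40.1%, 34.9% and 32.0%, against 55.6%, 35.8%, 63.0% and 24.7% of the 81. The lower count became 13, 22, 6 and 26, where all measured genes gave 38.7%, 34.3%, 30.5% and 33.3%. The 2-fold higher count became 8, 2, 2 and 1, where they gave 10.5%, 9.88%, 9.15% and 9.06%. Over the 4 lines, the share of the 81 genes that were higher in both monocytic lines, 23.5%, was near that of all measured genes, and the share that were lower, 7.41%, was below it.

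Where a gene lies in the genome went along with how it differed between lines. For each of the 81 genes, the median deviation was taken over all other genes that reached 5 RPKM and started within 5 Mb, 11 to 192 genes each. This comparison was chosen after the values had been seen. Across the 81 genes, the gene's own deviation and that of its neighbours had a Pearson r of 0.71 and 0.81 in HL60 and KG1a, and 0.71 and 0.44 in THP-1 and MonoMac-1 (Spearman 0.62, 0.78, 0.74 and 0.35). Genes are not independent replicates: those on 1 chromosome stretch share neighbours and library, and the 4 deviations of a gene sum to 0. The same r over 9717 other genes was 0.33, 0.27, 0.32 and 0.23. Leaving out 1 chromosome at a time gave r no lower than 0.60, 0.77, 0.68 and 0.36.

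**Figure D4:**
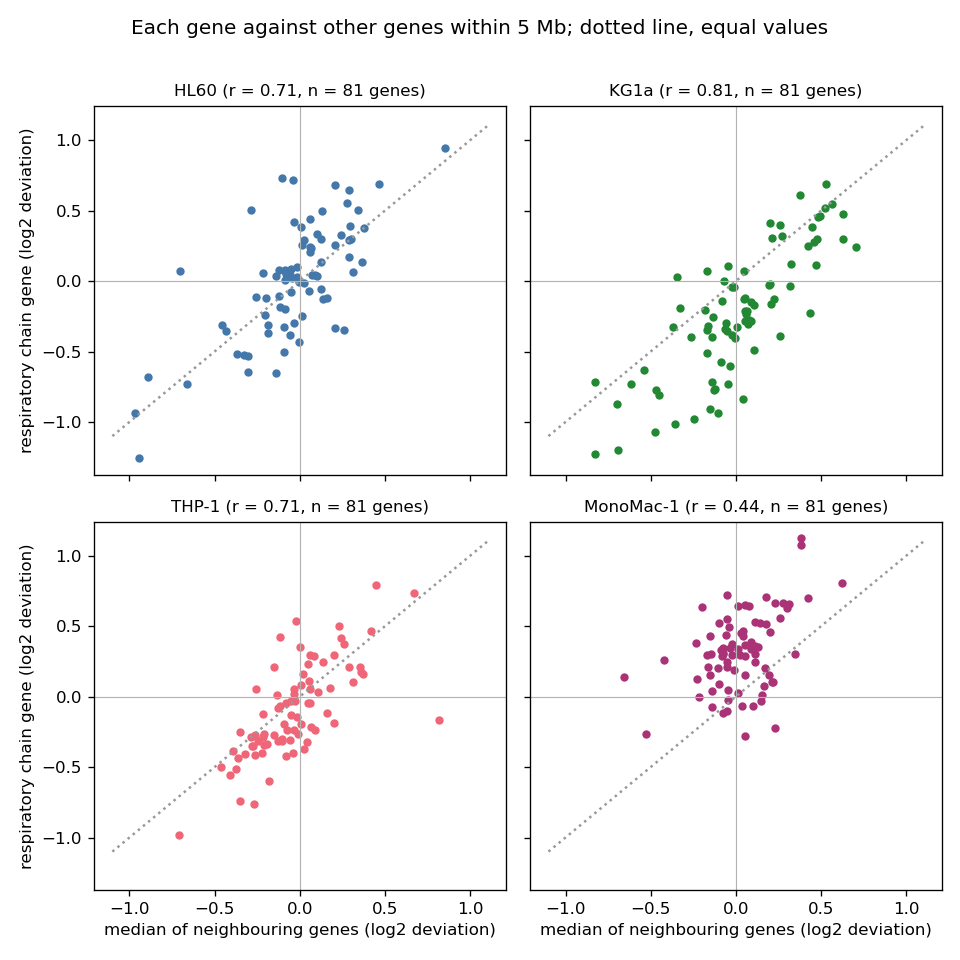
Each point is 1 of the 81 measured genes in 1 line: its log2 deviation from its mean over the lines (vertical axis) against the median deviation of other expressed genes within 5 Mb (horizontal axis), with 1 panel per line and a dotted line of equality. The correlation is highest in KG1a (r = 0.81), where most points lie below the line, and lowest in MonoMac-1 (r = 0.44), where most lie above it.

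HL60 was low for the 3 genes on chromosome 8, COX6C, UQCRB and NDUFB9, whose median deviation was -0.93. The other 353 expressed genes of that chromosome had a median of -0.92 in HL60. On chromosome 18, NDUFV2 deviated by 0.95 in HL60 and its neighbours by 0.85, while ATP5A1, farther along the chromosome, deviated by -0.73 and its neighbours by -0.66. The high NDUFV2 and the low ATP5A1 of HL60 were thus each matched in size by unrelated genes around them.

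In KG1a the 7 genes on chromosome 11 had a median of 0.45, and the other genes of the chromosome 0.36. NDUFS8, NDUFC2, NDUFV1, SDHD, COX8A, NDUFS3 and ATP5L are these 7 genes. NDUFS3 went the other way, at -0.30 with neighbours at -0.06. Some low KG1a values had partly matching surroundings: ATP5B deviated by -1.23 and its neighbours by -0.83, ATP5J2 by -1.20 and its neighbours by -0.69, and UQCRQ by -1.07 and its neighbours by -0.47. Others were matched less or not at all. NDUFS4 was at -0.94 with neighbours at -0.10, and COX5B at -0.91 with neighbours at -0.15. UQCRH was at -0.98 with neighbours at -0.25, and ATP5H at -0.84 with neighbours at 0.04. In THP-1, NDUFA9 deviated by -0.98 and its neighbours by -0.71. In MonoMac-1, UQCRQ deviated by 1.12 and NDUFB5 by 1.08, each with neighbours at 0.38.

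**Figure D5:**
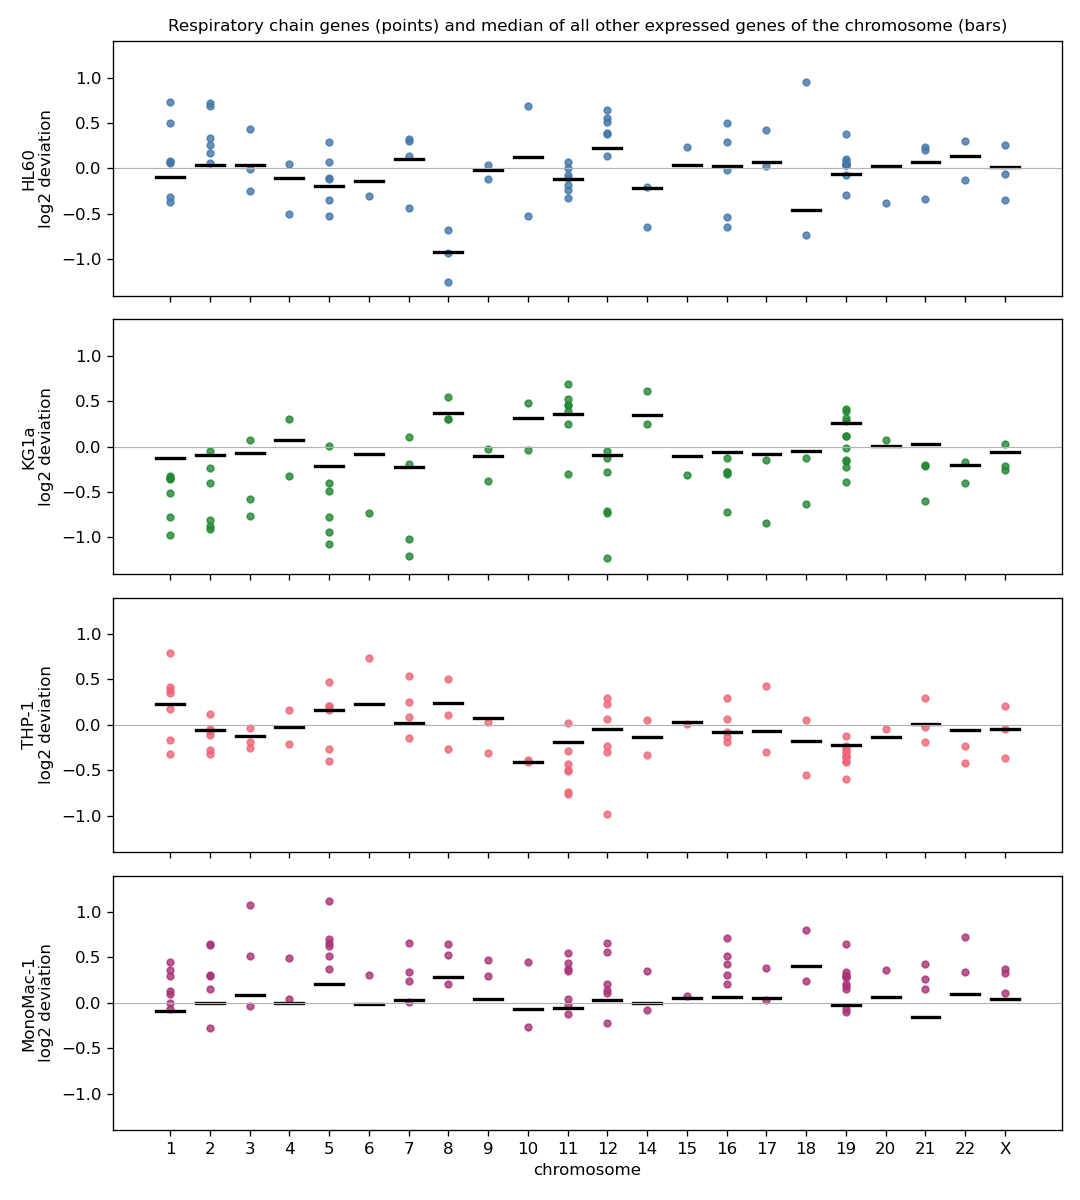
Log2 deviation of each of the 81 measured genes (points) by chromosome, with 1 panel per line; black bars are the medians of all other genes of the chromosome that reached 5 RPKM. In HL60 the 3 chromosome 8 points lie around the bar at -0.92, and in KG1a the chromosome 11 points lie mostly above 0 with the bar at 0.36.

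When the neighbours' median was taken off each value, 20 of the 81 genes had a range of at least 2-fold, down from 35, and the median range was 0.75 in place of 0.92. Among 9717 other genes treated the same way, 5830 had a 2-fold range as deposited and 4852 (49.9%) after it. MonoMac-1 was then highest for 54 and KG1a lowest for 44, against 22.6% and 30.3% of those other genes, and the median deviations were 0.06 and -0.25 in HL60 and KG1a, and -0.08 and 0.31 in THP-1 and MonoMac-1. DNA copy number was not measured here, and its part in these values was not tested.

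The other genes of the pathway, in lists of regulators, assembly factors and partners, held 2-fold ranges in a smaller share than the 61.1% of all measured genes. Of 14 measured regulators 7 reached it, led by EPAS1, which encodes the hypoxia-inducible factor HIF-2alpha (0.0872, 0.337, 20.4 and 0.549). MYC (596, 141, 113 and 137 RPKM) came next. TFAM, which packages mitochondrial DNA and takes part in its transcription, followed at 35.8, 26.9, 17.7 and 75.03. NRF1 itself was nearly level at 7.52, 6.47, 7.23 and 7.63, and PPARGC1A, the gene of PGC-1alpha, was not measured. Assembly factors with a 2-fold range numbered 4 of 10 for complex I, 1 of 2 for complex II, 2 of 4 for complex III, 8 of 19 for complex IV and 1 of 3 for ATP synthase. SCO2, which delivers copper to complex IV, was at 8.83, 1.98, 6.24 and 16.9, and KG1a was lowest. TMEM70, needed for ATP synthase assembly, was at 5.35, 17.5, 15.9 and 24.5, and HL60 was lowest.

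Among subunits and partners whose symbols the rule misses, 5 of 10 measured genes had a 2-fold range. CYCS, cytochrome c itself, was at 53.0 and 16.5 RPKM in HL60 and KG1a, and 32.5 and 36.1 in THP-1 and MonoMac-1. CYC1, the cytochrome c1 subunit of complex III, was at 79.1, 93.7, 199 and 220.5, so both monocytic lines were high. Mitochondrial ribosomal protein genes, whose products translate the mitochondrially encoded subunits, reached 2-fold in 38 of 77. Their median deviations were 0.29 and -0.23 in HL60 and KG1a, and -0.19 and 0.24 in THP-1 and MonoMac-1. They were highest in HL60 for 39 and in MonoMac-1 for 28, where all measured genes gave 23.1% and 24.9%. KG1a was lowest for 41, against 29.8% of all measured genes. KG1a and THP-1 were low in this list as in the subunits, but HL60 and not MonoMac-1 was highest most often.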

How the data were processed

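RNA of 4 leukemia lines was extracted with TRIzol and made into Illumina libraries, per the labels' protocols, with 1 library per line. Per the submitters' processing notes, CASAVA 1.8.2 was used and the build was hg19; which aligner, annotation and strand setting were used is not stated in the labels or files. Each table that the authors deposited holds an RPKM per gene and a whole-number coverage signal without a stated unit. The deposited coverage signal was read as bases on the gene, since 200 was its commonest low value; in MonoMac-1 12.8% of low values were multiples of 100, against 46.0% to 50.7% in the others, so its reads may have been trimmed or clipped, and its intervals assume reads of 100 bases all the same. No count model was used.

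Values were analysed as log2(RPKM + 1) computed from the RPKM that the authors deposited, over 21865 symbols (28 listed more than once, none of them a member; the highest entry was kept), with Python 3.11.15, numpy 2.4.6, pandas 2.3.3 and scipy 1.17.1. The pseudocount of 1 understates differences of weak genes. Exact Poisson intervals used bases divided by 200. The calling scripts were tested on simulated data. The members and gene lists were chosen with earlier results of these data known. Genes were named by rule: members of isoform families, the most abundant and widest-ranging subunits of each complex, members with a range of at least 2-fold, and at most 3 genes per other list; further members were named after their values were seen. Promoters came from RefSeq (GRCh38.p14), matched by symbol or synonym; no coordinates were converted. Alternatives were a pseudocount of 0.1, a 5 RPKM or no filter, median-of-ratios and quantile scaling, HL60 less the KG1a share, and leaving out each line. Values of 1 member and of 1 marker gene are not reported here by name; both stay in the counts and medians.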

Additional observations from a re-analysis of the deposited data

How the results depend on the processing

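With 1 library per line, agreement between cultures could not be assessed, and intervals cover counting error only. No paired analysis was possible because each line had 1 library. Of 406 values recomputed for 46 results, 369 stayed within 1.5 times of the reported one and 37 did not. The cause was not tested. Some of the 369 could not move, so their number does not measure stability. Summing the entries of a symbol gave 42 of them, though no member is listed more than once. Leaving out chromosome 13, which holds no measured member, gave 4. Taking the KG1a share off HL60 leaves results without HL60 unchanged. Quantile normalization moved 14 values and kept 32. Among log2 differences and correlations 0 changed sign, and counts and shares cannot change sign. The count of genes with a 2-fold range was 20 less the neighbours' median (chosen after the data were seen) and 16 to 29 with 1 line left out, the lowest without KG1a. The 2-fold pair counts after quantile normalization follow with the share of all measured genes in brackets. They were 12 for MonoMac-1 over KG1a (15.9%), 11 for HL60 over KG1a (14.6%) and 6 for KG1a over HL60 (15.6%). HL60 exceeded THP-1 in 2 (12.9%) and MonoMac-1 in 2 (11.2%). KG1a exceeded THP-1 in 4 (16.8%), and MonoMac-1 exceeded THP-1 in 3 (8.78%). Each was a smaller share of the 81 genes than the share in brackets. Median-of-ratios scaling gave 1 for THP-1 over HL60 and 2 for HL60 over MonoMac-1, and a pseudocount of 0.1 gave 2 for the latter. Shares over all genes were not counted for these settings. KG1a was highest for 21 genes after quantile normalization, against 30.3% of all measured genes. MonoMac-1 was lowest for 2 genes without a filter and 0 with the KG1a share taken off HL60. After quantile normalization it was lowest for 3, against 24.3% of all measured genes. Both monocytic lines were at least 2-fold higher for 1 gene with a pseudocount of 0.1 and for 1 with the KG1a share taken off. The same count was 1 after quantile normalization, against 3.68% of all measured genes. With 1 line left out that count was 1 to 8, the count by any margin 20 to 51 higher and 6 to 26 lower, and 0 genes were 2-fold lower. Of the complex medians (log2), quantile normalization gave MonoMac-1 over KG1a 0.26 in complex I, 0.21 in III, 0.27 in IV and 0.32 in V, and MonoMac-1 over THP-1 0.29 in complex I. Means in place of medians gave 0.75 over KG1a and 0.50 over THP-1 in complex III, and 0.32 in IV and 0.39 in V over THP-1. The highest COX6B2 share became 0.0162% after quantile normalization.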
